A study of Mus musculus with 3 samples.

Results

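The Bcl2l1 locus on mouse chromosome 2 carried 2 listed binding sites of the glucocorticoid receptor (GR) in macrophages, a tall one listed in both genotypes and a lower one listed in GRdim alone. They comprise 3 of the 1898 peaks in the lists of both genotypes, 1 from wild type (WT) and 2 from GRdim. Members are all peaks whose midpoint lies in chr2:152570000-152700000 (mm9), a window of 130 kb, and the stretch taken for the gene itself is about chr2:152606400-152657500 on the minus strand. Presence, height and rank in the lists chose these sites, so their values are a description and carry no test.

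GR-bound DNA was immunoprecipitated and sequenced (ChIP-seq) from primary macrophages differentiated out of femoral marrow of 12-week-old mice, with 1 library from GRdim animals, 1 from their GR+/+ littermates (WT here) and 1 input library that is not analysed here. Both genotypes were backcrossed to BALB/c. The GRdim allele is a germline point mutation that alters the dimer interface within the DNA-binding domain of GR, and all cells of the animal carry it. The protocol names dexamethasone (a synthetic glucocorticoid, 1 µM, overnight), lipopolysaccharide (LPS, a bacterial endotoxin, 100 ng/ml for 3 hours) or both, and the labels do not say which of these the libraries received. How many animals gave each library is not stated, and 1 library for each genotype gives no measure of the spread between animals. Peak lists hold no expression values, so neither the identity of the cells as macrophages nor the level of Bcl2l1 mRNA could be checked in them.

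Bcl2l1 encodes Bcl-xL, a member of the Bcl-2 family that sits mainly on the outer mitochondrial membrane and keeps cells alive by holding the pore-forming proteins Bax and Bak, and the BH3-only proteins that trigger them, in check. Alternative splicing of the same gene also gives Bcl-xS, a shorter form that favours cell death. GR is a steroid-activated transcription factor that binds DNA as a dimer at palindromic elements, and it can also be recruited to half-sites or through other factors such as AP-1 and NF-κB. In the RefSeq gene order (GRCm38.p6, used for names and order only), Bcl2l1 stands between Cox4i2, which encodes a subunit isoform of cytochrome c oxidase, and Tpx2, which encodes a spindle assembly factor.

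The site listed in both libraries lay at chr2:152631907-152632106 in WT and at chr2:152631906-152632105 in GRdim. It was 25.5 kb inside the gene from its 5′ end, near the middle of the 51.1 kb taken for the gene. The site listed in GRdim alone lay at chr2:152614634-152614833, which is 42.8 kb from the 5′ end and 8.33 kb from the 3′ end. Both sites were therefore within the approximate span of Bcl2l1, on the 3′ side of its start, and 17.3 kb apart. Whether they fall in an intron or an exon was not determined here, since no mm9 annotation was used, and the DNA sequence under the peaks is not shown for the same reason. No peak of either list was centred elsewhere in the window, so none lay at the 5′ end of Bcl2l1 or over its flanks.

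**Figure D1:**
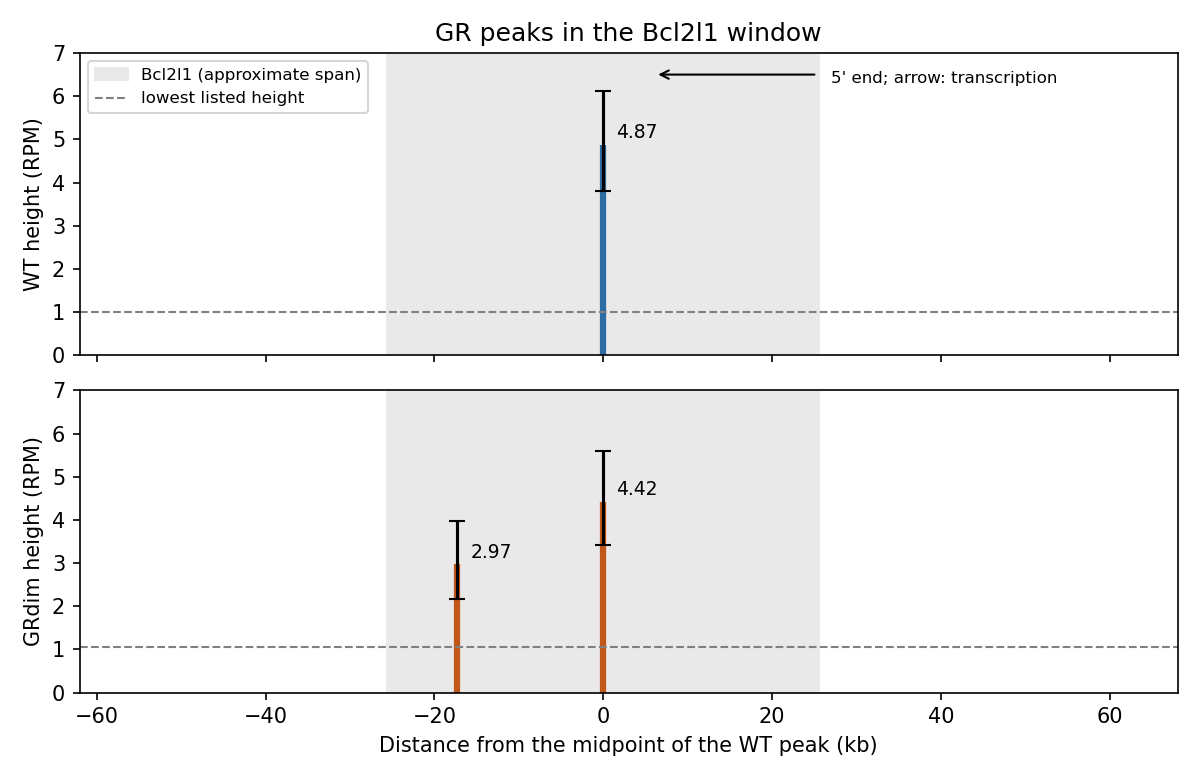
Peak height in RPM (reads per 1000000 reads of the library) against distance from the WT midpoint in kb, for WT (top) and GRdim (bottom), over the whole window. Whiskers are 95% exact Poisson intervals of the reads at a peak, the shaded band is the approximate span of the gene, transcribed from right to left, and dashed lines are the lowest heights in each list. Both libraries have a peak at 0 kb (4.87 RPM in WT and 4.42 in GRdim), and GRdim has a second one of 2.97 RPM 17.3 kb to the left.

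The shared site stood at 4.87 RPM in WT and 4.42 RPM in GRdim. Heights are the authors' own peak values, taken as reads at the peak per 1000000 reads of the library. They rise in even steps that were read as whole reads, which puts 72 reads at this site in WT and 67 in GRdim. The 95% exact Poisson intervals were 3.81 to 6.13 RPM and 3.42 to 5.61 RPM, so they overlap over most of their length. The GRdim height was 0.908 times the WT height (95% exact conditional interval 0.641 to 1.28). These intervals are meant for counting error only. They take each read as an independent molecule, which reads without molecular identifiers need not be, so they can be too narrow. The interval of the ratio holds 1, which does not show that binding was equal.

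The position of the shared site was nearly identical in the libraries. Its midpoints differed by 1 bp, against a median of 23.5 bp over all 242 sites listed in both libraries, and 10 of those 242 pairs (4.13%) were as close or closer. By summed height the Bcl2l1 site (9.29 RPM) ranked 3 among the 242. By the lower of its heights (4.42 RPM) it ranked 2, behind a site with 4.87 RPM and ahead of one with 4.28. The ratio of its heights lay between the quartiles of all shared sites, just above the lower one. Ratios of GRdim over WT at shared sites had a median of 1.05 (quartiles 0.895 and 1.27) and ran from 0.222 to 2.15. Only 50 of the 242 sites had a summed height of at least 4 RPM, so most of these ratios rest on fewer reads. GRdim was the lower library at 97 sites, this one included. A difference as small or smaller in either direction was seen at 69 of the 242 sites (28.5%), this one included.

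**Figure D2:**
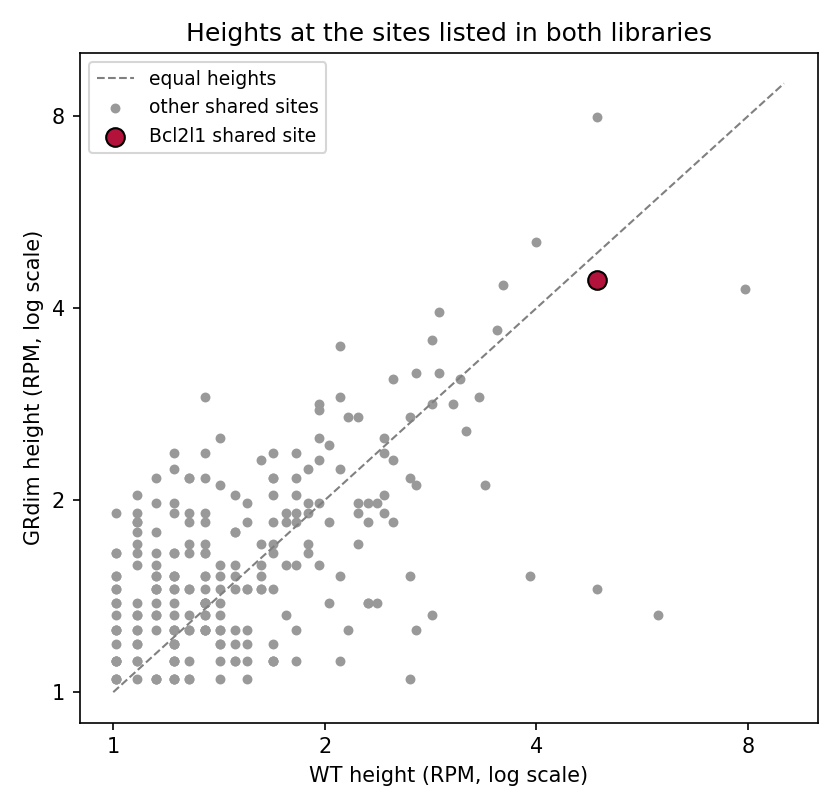
GRdim height against WT height, both in RPM on log axes, for the 242 sites listed in both libraries; each grey point is a site and the dashed line marks equal heights. The Bcl2l1 site (red, 4.87 and 4.42 RPM) lies just under the line near the upper end of the cloud.

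The WT height of the Bcl2l1 site was also that of other peaks, looked up after the tie was seen. A total of 3 WT peaks were listed at 4.87 RPM, and all were also listed in GRdim. At the chromosome 5 site (chr5:114395281-114395480) GRdim stood at 7.97 RPM, at the Bcl2l1 site at 4.42 RPM, and at the chromosome 13 site (chr13:5614123-5614322) at 1.45 RPM. The Bcl2l1 site was thus the one of the 3 whose heights were closest in the libraries. Among the 16 WT peaks of at least 4.87 RPM, 5 were listed in GRdim and 11 were not, and 6 of the 16 lay on chromosome Y.

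The GRdim-only site stood at 2.97 RPM in GRdim, which corresponds to 45 reads (95% exact Poisson interval 2.16 to 3.97 RPM). Its height was 0.672 times that of the shared site in the same library (95% exact conditional interval 0.450 to 0.995). Both of these intervals also take reads as independent molecules and can be too narrow. In WT no peak was listed at the GRdim-only site, and the nearest WT peak was the shared site 17.3 kb away. The WT list stops at 1.01 RPM, or 15 reads, and the GRdim height was 2.94 times this lowest WT value. That number is not a fold difference between genotypes: the WT signal at the position is not in the list, and filters other than the floor are not described. A WT height between 0 and the floor, or a signal removed by such a filter, cannot be told apart here.

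Presence in the other list was the less usual outcome over the whole lists. Of all WT peaks 22.5% overlapped a GRdim peak, and of all GRdim peaks 29.4% overlapped a WT peak, both by at least 1 base. At Bcl2l1 the only WT peak was shared and 1 of 2 GRdim peaks was. Since the members were chosen on presence, nothing is read from this count. GRdim peaks of similar height to the GRdim-only site were then counted. A total of 65 other GRdim peaks had a height within its counting interval, and their heights ran from 2.17 to 3.95 RPM. Of these peaks 42 (64.6%) were also listed in WT, with WT heights of 1.15 to 3.51 RPM and a median of 2.07. The other 23 were not listed in WT. Of the 16 GRdim peaks that were at least as tall as this site, it was 1 of 3 without a WT peak.

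Within each list the Bcl2l1 peaks were near the top. The shared site ranked 14 of 1076 in WT (level with 2 other peaks) and 3 of 822 in GRdim, and the GRdim-only site ranked 16 of 822. On chromosome 2 alone, the shared site was the tallest of 72 GRdim peaks and ranked 2 of 83 in WT. It was 3.99 times the median height of the WT list (1.22 RPM) and 3.54 times that of the GRdim list (1.25 RPM). The GRdim-only site was 2.38 times the GRdim median and ranked 3 among the 580 peaks listed in GRdim alone, whose median height was 1.19 RPM. Ranks from lists of different length are read within a list and show no change between genotypes. Chromosome Y has peaks in the WT list only, and without them the shared site ranked 8 of 1050 in WT and again 3 of 822 in GRdim. Whether the sex of the animals differed between the libraries was not tested.

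**Figure D3:**
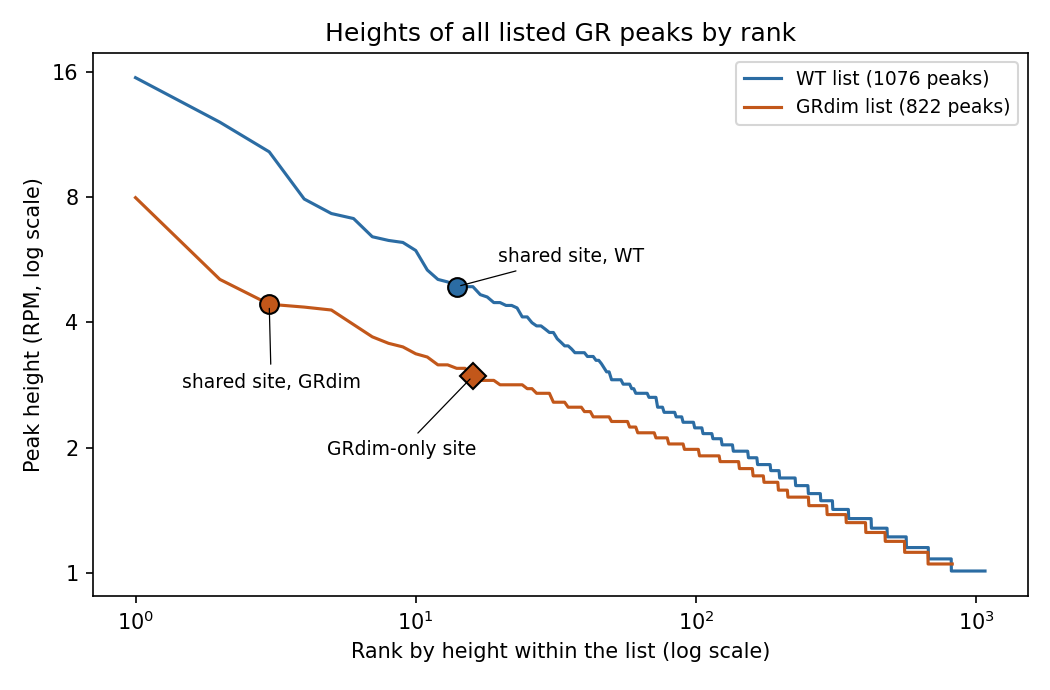
Height in RPM against rank within the list, both on log axes, for the 1076 WT peaks (blue) and 822 GRdim peaks (orange), with the Bcl2l1 peaks marked (circles for the shared site, a diamond for the GRdim-only site). The shared site sits at rank 14 in WT and rank 3 in GRdim, and the GRdim-only site at rank 16.

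Summed over the window, listed heights were 4.87 RPM in WT (1 peak, 200 bp) and 7.39 RPM in GRdim (2 peaks, 400 bp). The ratio of 1.52 moves with how much was called, because WT contributes no value at the GRdim-only position. No counting interval is given for this ratio, since it would take the unlisted WT signal as absent. Mean heights per peak were 4.87 RPM in WT and 3.70 RPM in GRdim. They too depend on which sites were listed, as only the GRdim mean takes in the lower GRdim-only site. The locus held 0.303% of the summed height of the WT list and 0.618% of that of the GRdim list. These shares are of unlike totals, 1076 WT peaks with chromosome Y among them and 822 GRdim peaks without it. They are therefore read within a list and show no change between genotypes.

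The layout at Bcl2l1, a shared site with a second site of 1 library close by, was then counted over the lists. Of the 242 shared sites, 13 (5.37%) had a GRdim-only peak within 20 kb, and 26 (10.7%) had a WT-only peak within that distance. No shared site had both. Seen from the other side, 12 of 580 GRdim-only peaks (2.07%) and 27 of 834 WT-only peaks (3.24%) lay within 20 kb of a shared site. The 12 GRdim-only peaks had a median height of 1.49 RPM. The one at Bcl2l1 was the tallest of them, and the next stood at 2.50 RPM. Among the 27 WT-only peaks the median was 1.35 RPM and the tallest reached 3.31 RPM.

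The 2 Bcl2l1 sites stood alone on their stretch of the chromosome. Toward lower coordinates, which is beyond the 3′ end of Bcl2l1, the next GRdim peak was 2.13 Mb from the shared site (chr2:150499645-150499844, 1.19 RPM) and the next WT peak 3.955 Mb away (chr2:148677356-148677555, 1.15 RPM). Toward higher coordinates, beyond the 5′ end of Bcl2l1, the next WT peak was 305 kb away (chr2:152937035-152937234, 1.01 RPM) and the next GRdim peak 311 kb away (chr2:152942943-152943142, 1.05 RPM). These outer peaks were at or close to the floor, did not overlap each other, and were each listed in 1 library only.

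**Figure D4:**
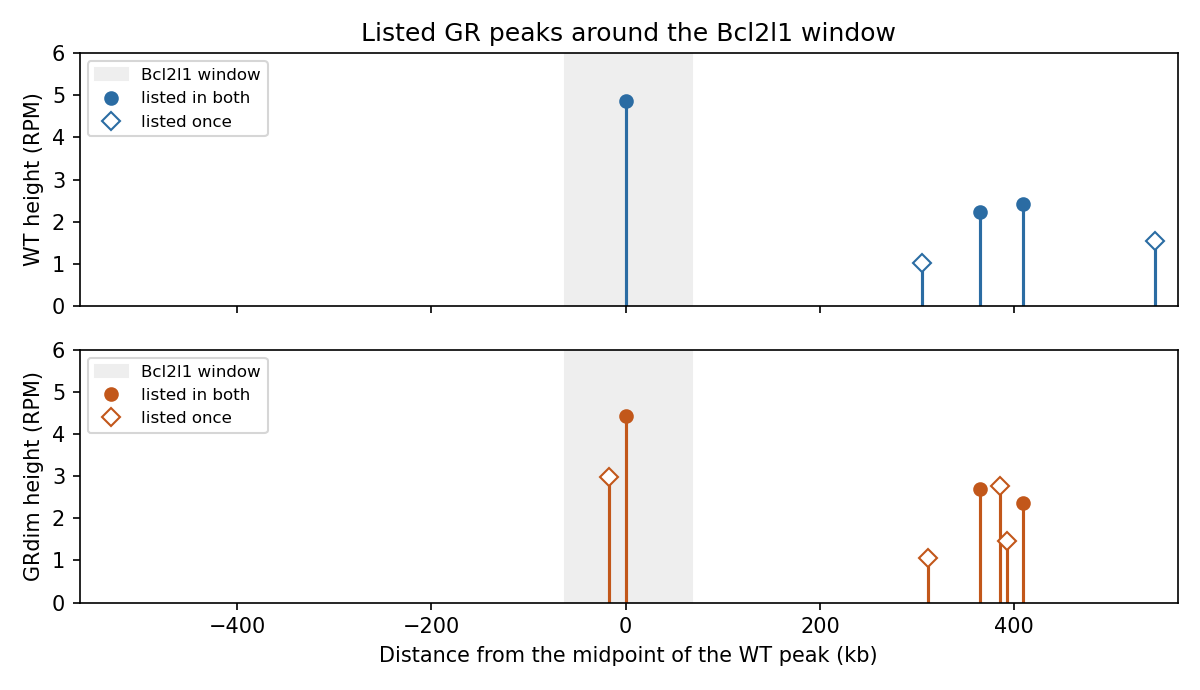
Peak height in RPM against distance from the WT midpoint in kb, for WT (top) and GRdim (bottom), over the window (shaded) and 500 kb on each side; filled circles are peaks listed in both libraries and open diamonds peaks listed in 1. The window holds the tallest peak of each panel, no peak is plotted to its left, and a further group begins 305 kb to the right of the shared site.

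Farther along on the same side lay a group with a similar mix, described after its values were seen. At 364 kb from the shared Bcl2l1 site another shared site stood at 2.23 RPM in WT and 2.70 RPM in GRdim, and at 409 kb a further one stood at 2.43 and 2.37 RPM. Between them GRdim alone had peaks of 2.77 RPM at 385 kb and 1.45 RPM at 393 kb. All 4 positions were lower than the shared Bcl2l1 site in each library that listed them. Over the window and 500 kb on each side, WT had 5 peaks and GRdim 7, of which 3 in each list were shared.

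The start region of Bcl2l1 had no listed peak in either library. RefSeq (GRCm38.p6) gives 3 windows for Bcl2l1 in its promoter table, with starts spread over 3.24 kb, a spread smaller than the 25.5 kb from the 5′ end to the nearest site. The outermost of them is shown because it is the stretch where a promoter-bound receptor would be looked for; it is chr2:152831729-152831978 in GRCm38.p6, minus strand, the 250 bases before the start, 5′ to 3′, and its coordinates are not comparable with the mm9 positions above.

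Bcl2l1 promoter: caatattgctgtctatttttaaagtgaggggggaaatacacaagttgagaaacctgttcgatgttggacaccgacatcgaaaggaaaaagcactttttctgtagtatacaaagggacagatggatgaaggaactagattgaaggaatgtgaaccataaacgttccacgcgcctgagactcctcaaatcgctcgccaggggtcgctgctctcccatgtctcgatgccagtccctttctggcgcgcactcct

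No base is in capitals because none of the motifs searched was found in it. The palindromic GR element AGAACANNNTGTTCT, the GR half-site AGAACA contained in it, and the AP-1 element TGANTCA were looked for on both strands as exact letters. None of the 3 Bcl2l1 windows held any of them. Over 32851 promoter windows of the same length in the table, 0.00913% held the palindrome, 16.1% the half-site and 6.75% the AP-1 element. The absence says only that these letters are not in these windows. The peaks themselves lie elsewhere, and their sequence was not searched.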

How the data were processed

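ChIP-seq with an antibody against GR was analysed for 1 WT and 1 GRdim library. Bowtie and the build mm9 are named in the submitters' processing notes; for the peak caller, its thresholds and the use of the input, the sources used here give nothing. The deposited lists give a position and a height per peak; heights are taken as RPM as the authors computed them, since the deposited peak names carry the mark 1rpm. No header states the unit. All peaks are 200 bp wide. Positions are printed 1-based.

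The RPM of 1 read was fitted as the step, from 0.05 to 0.2, whose whole multiples lie closest to the heights. Within 0.1 read, 1075 of 1076 WT and 822 of 822 GRdim heights were whole. The steps imply about 14800000 and 15200000 reads per library, and the lowest peaks hold 15 and 16 reads. Read numbers and intervals rest on this fit, and no file states a depth.

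Peaks overlapping by at least 1 base were called shared. Intervals are 95% exact Poisson, or exact binomial conditional on the summed reads for ratios. Tied heights took the best rank. No test was run, as the rule that chose the sites used these measures. Every peak of the window and the nearest outside it were named, by rule. The members, lists and comparisons were chosen with earlier results of these data known. The step fit and the overlap of peaks were tested on lists simulated from these data, and the other steps were not. Software was scipy 1.17.1 and numpy 2.4.6 under Python 3.11.15, with plots by matplotlib 3.10.9.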

Additional observations from a re-analysis of the deposited data

How the results depend on the processing

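Leaving aside the widest window, 21 of 22 values under other settings kept to within 1.5 times a count or to the counting interval of a height or rank, and most of the counts could not move, since no other peak lies near. The numbers of peaks, the overlap at the shared site and the summed ratio were the same for the gene stretch alone, a window widened by 50 kb, heights at or above the median, lists of equal length and stricter or looser overlap, wherever each was run. The exception was the WT rank of the shared site, which was 8 without chromosome Y against 14 with it. Its height ratio was 0.931 in unscaled reads, 0.886 relative to list medians and 0.864 with the median ratio of all shared sites set to 1. A window widened by 500 kb on each side, chosen after seeing the data, held 5 WT and 7 GRdim peaks with a summed ratio of 1.47. The summed ratio without the tallest site has no value, as WT then has no peak. No library could be left out, and no paired analysis was possible because each genotype has 1 library. Peaks under about 1 RPM are not in the lists, so the depth of WT signal at the GRdim-only site is unknown.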
